A study of Mus musculus with 6 samples.

Results

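The genes described are 10 effectors and modulators of Notch signalling, Hes1, Hes5, Hes6, Hey1, Hey2, Heyl, Nrarp, Rbpj, Lfng and Mfng, chosen by gene name. Each name matched 1 row, so they make up 10 of the 54532 gene rows of the table. Bulk RNA sequencing was done on neurospheres, which are floating spheres of dividing neural progenitors, cultured from hippocampi of C57BL/6 pups at postnatal day 0 (P0) with FGF-2 and EGF at 20 ng/ml each and collected on day 7. The 3 FGF13cko libraries carry hGFAPCre and a floxed Fgf13 gene on the single X chromosome (hGFAPCre+, Fgf13 flox/y). The 3 CTRL libraries carry the same Cre transgene with an intact Fgf13 gene (hGFAPCre+, Fgf13+/y) and are described as littermates. Both groups thus hold the Cre recombinase, which is driven by the human GFAP promoter, so deletion is limited to cells in which that promoter has been active and to their descendants. Cells of 1 mouse were spread over 2 wells, and nothing in the labels ties a library to its own mouse. The p-values therefore measure only the spread between these libraries, which may be technical.

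Notch is a receptor that is cut when a ligand on a neighbouring cell binds it. The freed intracellular part joins the DNA-binding protein Rbpj and switches on targets such as Hes1, Hes5 and the Hey genes. Their products are basic helix-loop-helix repressors that hold neural progenitors back from becoming neurons, whereas the atypical member Hes6 favours differentiation. Fringe enzymes (Lfng, Mfng) add sugars to the receptor and change which ligands it answers, and Nrarp, itself a target, damps the signal.

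Reads assigned to genes, taking the smallest value of each library as 1 read, ranged from 24015697 to 24531400 in FGF13cko and from 22191718 to 24261454 in CTRL libraries. The values are the authors' normalized counts (on a scale where each library has its own value for 1 read). The tests are limma on log2(normalized count + 1) with Benjamini-Hochberg adjustment over all 16852 genes with a mean of at least 10, and "past the threshold" means an adjusted p under 0.05. Among these genes 14.6% passed, 7.08% lower and 7.55% higher in FGF13cko, and single libraries moved the count of 2465 genes to between 469 (without FGF13cko 2) and 4373 (without CTRL 3). Fgf13, the targeted gene, had 201, 239 and 332 normalized counts in FGF13cko 1, 2 and 3, against 480, 651 and 276 in CTRL 1, 2 and 3. CTRL 3 lay within the FGF13cko range, and the log2 change of -0.81 was not past the threshold (limma adjusted p = 0.134), so counts over the whole gene check the labels only in part. Both replicate 3 libraries stood apart: mitochondrially encoded genes held 4.05% of the normalized counts in FGF13cko 3 and 4.14% in CTRL 3, against 2.28% and 2.36% in the other FGF13cko and 1.48% and 1.46% in the other CTRL libraries. Results that move with them are given with and without them.

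The markers of neural progenitors were abundant, with a summed level of 195942 to 204429 normalized counts over 10 genes in FGF13cko and 141276 to 155190 in CTRL libraries, although 3 of the 10 were lower and none higher. Vim, Fabp7 and Nes held most of this sum, and none of them passed. The lower genes, with means in FGF13cko and CTRL, were Sox2 (6606 and 11372), Pax6 (781 and 1568) and Prom1 (293 and 594). In log2 change 6 of the 10 were below 0 and 4 above. Other cell types could contribute to bulk values. Markers of young neurons summed to 38984 to 52627 in FGF13cko and 21739 to 30131 in CTRL (6 of 10 higher, none lower), and those of the oligodendrocyte lineage to 60116 to 75621 in FGF13cko and 54193 to 71796 in CTRL (2 of 10 lower, none higher). Olig1 and Olig2, which did not pass, held most of this last sum and hide the other markers. In log2 change 8 of the 10 were below 0 and 2 above. The lower genes were Sox10, averaging 861 in FGF13cko and 3201 in CTRL, and Gpr17, averaging 389 in FGF13cko and 2394 in CTRL. Microglial markers summed to 365 to 554 in FGF13cko and 188 to 196 in CTRL (3 of 8 tested higher, Cx3cr1 and Itgam under the filter), and ependymal and choroid plexus markers to 1459.7 to 1730.1 in FGF13cko and 559.5 to 943 in CTRL (3 of 4 tested higher, Tmem212 at 0 in every library). Astrocyte markers, with 1 of 8 higher, spanned 62138 to 90865 in FGF13cko and 63462 to 94053 in CTRL. Slc1a3 is part of both the astrocyte and the progenitor sums, averaging 26889 in FGF13cko and 31798 in CTRL. Gfap alone ranged from 7845 to 30885 in FGF13cko and from 3721 to 26687 in CTRL. Fewer cells of a type and less RNA per cell cannot be told apart here, and the part of these cell types in the results was not tested.

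Of the 10 genes, 9 passed the filter on low values, and 5 of them were lower in FGF13cko neurospheres and none higher: Hes5, Hey2, Mfng, Nrarp and Hes6. That compares with 7.08% lower and 7.55% higher over all genes tested. At an unadjusted p under 0.05, 5 of the 9 were again lower and none higher, against 15.1% lower and 16.7% higher over all genes tested. In the authors' deposited table these 5 genes are also lower and none of the 10 is higher at an adjusted p under 0.05, where 7.91% of all genes are lower and 16.7% are past it in either direction. In the same 5 genes every FGF13cko library lay below every CTRL library, which is so for 18.7% of all genes tested, while 20.6% are higher without overlap and 39.4% do not overlap in either direction. The log2 change was -1 or lower in 3 of the 9 (Hes5, Hey2 and Mfng), against 6.33% of all genes tested. Hes1, Rbpj, Hey1 and Lfng were not past the threshold, and Heyl was too low to be tested. The median log2 change of the 9 tested genes was -0.78, against 0.02 over all genes tested, and 8 of the 9 were below 0, against 48% of all genes tested. Leaving out CTRL 3 or both replicate 3 libraries added Hes1 and Rbpj to the genes past the threshold, as did the replicate number as a block. The 7 lower of 9 stand against 12.9% lower of all genes tested without CTRL 3, 18.4% without both replicate 3 libraries and 13.9% with the block (30% in either direction). Without FGF13cko 1, FGF13cko 2, FGF13cko 3 or CTRL 1, 3 genes were past the threshold, and 4 without CTRL 2. Calls over all genes tested fell as well, from 1193 lower of 16852 with all libraries. There were 633 of 16924 lower without FGF13cko 1, 276 of 16875 without FGF13cko 2 and 492 of 16814 without FGF13cko 3. For CTRL there were 341 of 16905 lower without CTRL 1 and 732 of 16916 without CTRL 2. Hes5, Hey2 and Mfng passed under each of the 13 other settings run, while Nrarp and Hes6 did not.

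**Figure D1:**
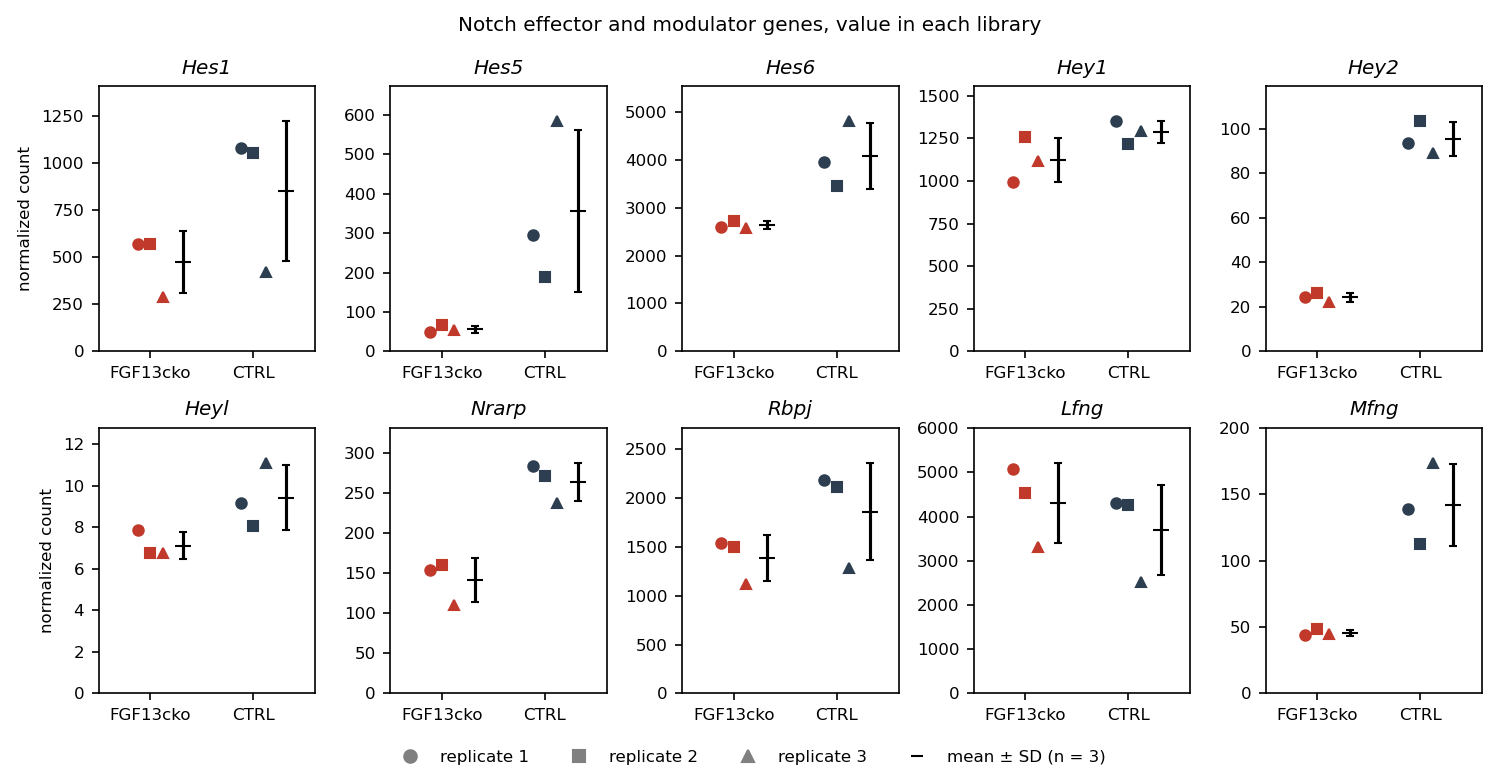
Normalized count of each of the 10 genes (y axis, starting at 0) in each library, FGF13cko left and CTRL right, with a marker shape per replicate number and the mean ± SD (n = 3) as a black bar. FGF13cko and CTRL libraries do not overlap for Hes5, Hes6, Hey2, Heyl, Nrarp and Mfng. Hes1, Rbpj, Lfng, Hey2 and Nrarp are each lowest in the replicate 3 library of both groups.

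Among the Hes genes, Hes5 (ENSMUSG00000048001, chromosome 4, 154960923 to 154962371, plus strand, GRCm38) had the largest log2 change. It encodes a repressor of neurogenesis that is a direct target of Notch in neural stem cells. Hes5 had 50.2, 66.6 and 53.2 normalized counts in FGF13cko 1, 2 and 3, against 295, 189 and 586 in CTRL 1, 2 and 3. All FGF13cko libraries were below all CTRL libraries, and the CTRL libraries were spread widely, with CTRL 3 highest. The means were 56.6 ± 8.74 in FGF13cko and 357 ± 205 in CTRL (SD, n = 3 each), so the CTRL mean was 6.30 times the FGF13cko mean. On the log2 scale the difference was -2.49 (SE 0.39, 95% interval -3.38 to -1.60, limma adjusted p = 0.00794). Only 0.516% of the tested genes had a lower log2 change. Without CTRL 3, the log2 change was -2.05 (limma adjusted p = 0.00174).

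Hes1 (ENSMUSG00000022528, chromosome 16, 30064384 to 30067796, plus strand), the widely expressed repressor whose level oscillates in neural progenitors, had 571, 572 and 286 normalized counts in FGF13cko 1, 2 and 3, against 1079, 1054 and 419.7 in CTRL 1, 2 and 3. In both groups the replicate 3 library was lowest, and CTRL 3 lay between the FGF13cko libraries, so the groups overlap. The log2 change of -0.78 (95% interval -1.74 to 0.17) was not past the threshold (limma adjusted p = 0.233). Set against the CTRL library of the same replicate number, Hes1 in FGF13cko 1, 2 and 3 differed by -0.92, -0.88 and -0.55 on the log2 scale. The size of this change depended on single libraries: it was -0.45 without FGF13cko 3 (limma adjusted p = 0.518) and -0.55 and -0.57 without CTRL 1 and CTRL 2 (0.474 and 0.433). With the replicate number as a block, Hes1 was past the threshold (limma adjusted p = 0.00453), as it was without CTRL 3 (log2 change -1.23, limma adjusted p = 0.0170) and without both replicate 3 libraries (log2 change -0.90, limma adjusted p = 0.000179).

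Hes6 (ENSMUSG00000067071, chromosome 1, 91411483 to 91414038, minus strand) encodes an atypical family member that counteracts Hes1 and favours differentiation. It had 2587, 2729 and 2581 normalized counts in FGF13cko 1, 2 and 3, against 3946, 3458 and 4813 in CTRL 1, 2 and 3. The FGF13cko libraries lay close together and below every CTRL library. Its log2 change of -0.62 (SE 0.16) passed the test (limma adjusted p = 0.0370). This call was lost without FGF13cko 1, FGF13cko 2, FGF13cko 3 or CTRL 1, where limma adjusted p lay between 0.108 and 0.129 and the log2 change between -0.60 and -0.64. It was also lost when low genes were not filtered out (limma adjusted p = 0.0622).

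In CTRL 3, the Hes genes parted from each other. Relative to the mean of CTRL 1 and 2 on the log2 scale, CTRL 3 differed by 1.31 for Hes5 and 0.38 for Hes6 but by -1.34 for Hes1. FGF13cko 3 differed from the mean of FGF13cko 1 and 2 by -0.12, -0.04 and -0.997 for Hes5, Hes6 and Hes1. The low Hes1 level was thus shared by both replicate 3 libraries, and the high Hes5 level was not seen in FGF13cko 3. Of the summed per-kilobase level of the 3 Hes genes, Hes5 held 2.11%, 2.66% and 2.43% in FGF13cko 1, 2 and 3, against 7.39%, 5.40% and 13.03% in CTRL 1, 2 and 3. The log2 ratio of Hes5 to Hes1 was -2.99 ± 0.54 in FGF13cko and -1.29 ± 1.56 in CTRL (SD, n = 3 each), and the groups overlapped (exact permutation test, 2-sided, p = 0.2, adjusted p = 0.3 over the 6 pairs of genes compared). The smallest p that 3 against 3 libraries allow is 0.1. The difference between the group means of this log2 ratio, -1.71, was -0.82 without CTRL 3. Within replicate numbers 1, 2 and 3 the FGF13cko ratio differed from the CTRL ratio by -1.62, -0.61 and -2.89 (exact paired permutation test, 2-sided, p = 0.25, the smallest that 3 pairs allow). The ratio of Hes6 to Hes1 differed by 0.17 between the groups (exact permutation test, 2-sided, p = 0.7), and its sign turned without FGF13cko 3, CTRL 1 or CTRL 2 (-0.15, -0.08 and -0.16).

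**Figure D2:**
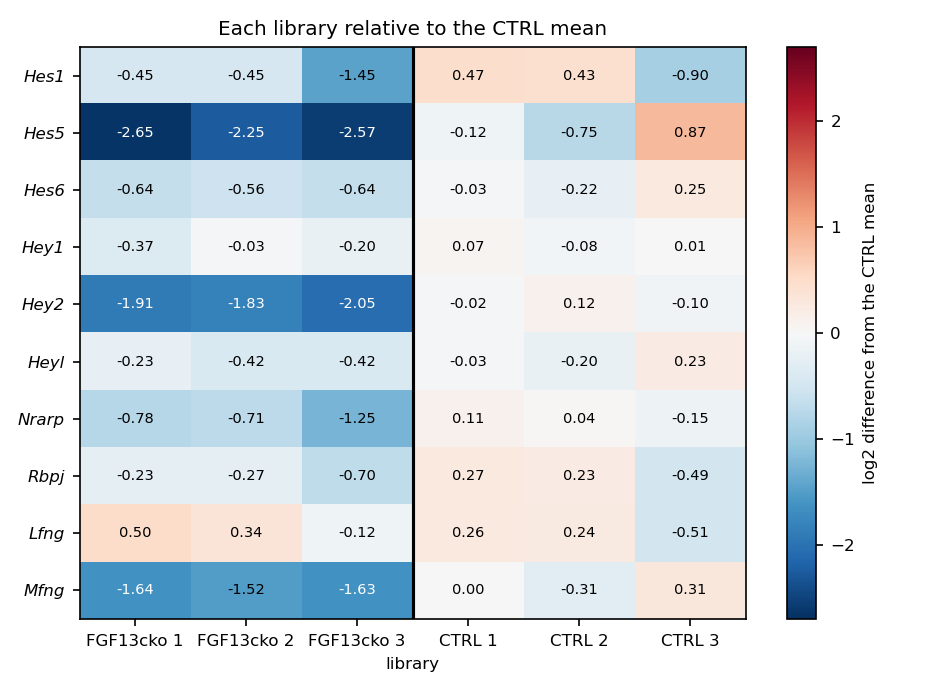
Log2 difference of each library from the mean of the 3 CTRL libraries, computed on log2(normalized count + 1), for the 10 genes (rows) in the FGF13cko and CTRL libraries (columns). Hey2 is at -1.91, -1.83 and -2.05 in the FGF13cko libraries and within 0.12 of the CTRL mean in each CTRL library, whereas Hes1 is at -1.45 in FGF13cko 3 and -0.90 in CTRL 3.

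Of the Hey genes, Hey2 was lower and Hey1 did not pass the test. Hey2 (ENSMUSG00000019789, chromosome 10, 30832359 to 30842801, minus strand), a Notch target that is best known in heart and vessels and also represses neuronal genes in progenitors, had 24.6, 26.0 and 22.2 normalized counts in FGF13cko 1, 2 and 3, against 93.6, 104 and 89.0 in CTRL 1, 2 and 3. Replicates differed little and the groups were far apart, and the log2 change of -1.93 (SE 0.24) passed the test (limma adjusted p = 0.00352). Only 1.13% of the tested genes had a lower log2 change. Hey1 (ENSMUSG00000040289, chromosome 3, 8663359 to 8667256, minus strand), its close relative, had 996, 1256 and 1117 normalized counts in FGF13cko 1, 2 and 3, against 1349.8, 1217 and 1297 in CTRL 1, 2 and 3. The groups overlap through FGF13cko 2, and the log2 change of -0.20 (95% interval -0.53 to 0.12) was not past the threshold (limma adjusted p = 0.363). The log2 ratio of Hey2 to Hey1 was -5.47 ± 0.16 in FGF13cko and -3.74 ± 0.17 in CTRL (SD, n = 3 each), with no overlap (exact permutation test, 2-sided, p = 0.1, the smallest that 3 against 3 libraries allow; adjusted p = 0.2).

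Heyl (ENSMUSG00000032744, chromosome 4, 123233556 to 123249875, plus strand), the third Hey gene, was near the lower limit of measurement. It had 7.87, 6.75 and 6.76 normalized counts in FGF13cko 1, 2 and 3, against 9.15, 8.05 and 11.1 in CTRL 1, 2 and 3, where a count of 0 allows up to 2.89 to 3.05 normalized counts at the 95% level (counting error only). The ranges do not touch, but the mean of 8.29 is under the filter, and the authors' deposited table gives a log2 change of -0.27 with an adjusted p of 0.774. Hey genes are also expressed in vessels. The 8 endothelial markers summed to 207 to 341 normalized counts in FGF13cko and 61.7 to 117 in CTRL libraries. Of these markers 2 of 6 tested were higher and none lower, with Emcn and Erg under the filter. The part of vessel cells in the values of the Hey genes was not tested. The 10 mural and fibroblast markers summed to 2800.2 to 3895 in FGF13cko and 2552 to 5707 in CTRL libraries, with 2 of 6 tested higher and Tagln, Kcnj8, Dcn and Lum under the filter. Their sum hides opposite movements, with 4 of the 6 above 0 in log2 change and 2 below. Rgs5 averaged 1241 in FGF13cko and 187 in CTRL, and Abcc9 21.7 and 3.37. Cspg4, which holds much of the sum, averaged 1845 in FGF13cko and 4173 in CTRL (limma adjusted p = 0.0717). Its means differed in the same direction as those of the oligodendrocyte markers Sox10 and Gpr17. Which cells the Cspg4 counts came from was not tested.

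The promoter windows of 3 genes that were lower and of 1 that did not pass the test (Lfng) are shown for the letters bound by Rbpj. RefSeq (GRCm38.p6) gave windows of 300 bases, from 250 bases before to 50 after the start, for Hes5, Hes6, Hey2, Nrarp, Rbpj and Lfng. Capitals mark the Rbpj core letters TGGGAA or, on the other strand, TTCCCA, and each sequence runs 5′ to 3′ on the strand of the gene. The windows are chr4:154960673-154960972 (plus) for Hes5, chr10:30842734-30843033 (minus) for Hey2, chr2:25180508-25180807 (plus) for Nrarp and chr5:140607091-140607390 (plus) for Lfng.
Hes5: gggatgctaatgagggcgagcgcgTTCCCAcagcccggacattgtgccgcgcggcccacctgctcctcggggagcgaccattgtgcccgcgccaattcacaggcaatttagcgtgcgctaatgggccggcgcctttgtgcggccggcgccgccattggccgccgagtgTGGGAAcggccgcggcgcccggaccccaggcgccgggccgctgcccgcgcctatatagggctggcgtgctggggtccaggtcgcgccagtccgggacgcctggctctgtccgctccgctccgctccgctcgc
Hey2: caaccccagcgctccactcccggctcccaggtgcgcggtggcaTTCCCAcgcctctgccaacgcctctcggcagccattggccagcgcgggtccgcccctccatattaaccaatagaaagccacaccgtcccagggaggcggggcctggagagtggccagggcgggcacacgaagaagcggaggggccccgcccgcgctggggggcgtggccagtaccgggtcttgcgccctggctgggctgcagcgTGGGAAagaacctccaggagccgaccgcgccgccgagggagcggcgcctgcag
Nrarp: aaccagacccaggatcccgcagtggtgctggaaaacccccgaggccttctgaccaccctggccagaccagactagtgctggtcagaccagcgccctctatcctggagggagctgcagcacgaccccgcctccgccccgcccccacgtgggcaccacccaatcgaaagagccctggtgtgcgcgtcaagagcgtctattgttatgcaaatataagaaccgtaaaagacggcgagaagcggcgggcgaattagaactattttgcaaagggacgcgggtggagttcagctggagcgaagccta
Lfng: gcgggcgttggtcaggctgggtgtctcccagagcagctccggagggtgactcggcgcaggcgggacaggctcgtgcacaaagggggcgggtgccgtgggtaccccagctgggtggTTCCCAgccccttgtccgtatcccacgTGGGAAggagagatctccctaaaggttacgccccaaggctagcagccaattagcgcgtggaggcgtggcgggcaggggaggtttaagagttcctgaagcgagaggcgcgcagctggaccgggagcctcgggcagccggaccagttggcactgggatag
In Hes5 the matches begin 226 and 82 bases upstream of the start, on opposite strands, and in Hey2 207 and 3 bases upstream, also on opposite strands. In Lfng they begin 135 and 108 bases upstream. Nrarp and both Hes6 windows have no match, and the 2 overlapping windows of Rbpj have 2 and 1. Of all 32851 windows of this length, 25.6% hold at least 1 match and 3.79% at least 2. The N box CACNAG, letters bound by Hes repressors, was found on either strand in 42.5% of all windows, in those of Nrarp (2 matches) and Lfng (1 match) and in 1 of the 2 Hes6 windows (2 matches), and its matches overlap no Rbpj match. A match is a description of letters, and these counts say nothing of binding.

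Nrarp (ENSMUSG00000078202, chromosome 2, 25180758 to 25183339, plus strand), the feedback inhibitor of the Notch complex, had 153, 160.2 and 110.2 normalized counts in FGF13cko 1, 2 and 3, against 284, 271 and 238 in CTRL 1, 2 and 3. All FGF13cko libraries were lower, FGF13cko 3 the lowest. The log2 change was -0.91 (SE 0.21, limma adjusted p = 0.0250). It stayed between -0.74 and -1.01 with 1 library left out, but the call was lost without any 1 of the FGF13cko libraries, CTRL 1 or CTRL 2 (limma adjusted p = 0.0533 to 0.0985).

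Rbpj (ENSMUSG00000039191, chromosome 5, 53466152 to 53657362, plus strand), the DNA-binding partner of Notch, had 1538, 1500.2 and 1117 normalized counts in FGF13cko 1, 2 and 3, against 2182, 2117 and 1284 in CTRL 1, 2 and 3. As for Hes1, the replicate 3 library was lowest in both groups, and CTRL 3 lay between the FGF13cko libraries. The log2 change of -0.40 (95% interval -0.95 to 0.14) was not past the threshold (limma adjusted p = 0.281). Without FGF13cko 3, CTRL 1 or CTRL 2 the log2 change was -0.25, -0.27 or -0.29 (limma adjusted p = 0.562, 0.549 and 0.502). It was past the threshold with the replicate number as a block (limma adjusted p = 0.0404), without CTRL 3 (log2 change -0.65, limma adjusted p = 0.0194) and without both replicate 3 libraries (-0.50, limma adjusted p = 0.0018). The processed pseudogene Rbpj-ps3, whose reads could be exchanged with those of Rbpj, had 3.87 to 6.88 normalized counts in FGF13cko and 9.10 to 13.2 in CTRL libraries, and Rbpj-ps1 was at 0 in every library.

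The log2 ratio of Nrarp to Rbpj was -3.29 ± 0.06 in FGF13cko and -2.78 ± 0.30 in CTRL (SD, n = 3 each), without overlap (exact permutation test, 2-sided, p = 0.1, the smallest possible; adjusted p = 0.2). Nrarp was thus lower relative to Rbpj in every FGF13cko library than in any CTRL library, and the difference between the group means, -0.51, was -0.34 without CTRL 3.

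Of the fringe genes, Mfng was lower, and Lfng and Rfng did not pass the test. Mfng (ENSMUSG00000018169, chromosome 15, 78755882 to 78773475, minus strand), manic fringe, had 44.3, 48.2 and 44.5 normalized counts in FGF13cko 1, 2 and 3, against 139, 113 and 174 in CTRL 1, 2 and 3. The FGF13cko libraries were nearly alike and all far below CTRL. The log2 change of -1.59 (SE 0.24) passed the test (limma adjusted p = 0.00706). Lfng (ENSMUSG00000029570, chromosome 5, 140607320 to 140615545, plus strand), lunatic fringe, had 5088, 4542 and 3314 normalized counts in FGF13cko 1, 2 and 3, against 4313, 4255 and 2530.4 in CTRL 1, 2 and 3. The replicate 3 library was lowest in both groups and the groups overlap, and the log2 change of 0.24 (95% interval -0.34 to 0.82) was not past the threshold (limma adjusted p = 0.549). Its value was -0.01 without CTRL 3. The third fringe gene, Rfng, averaged 949 ± 48.2 in FGF13cko and 794 ± 139 in CTRL (log2 change 0.27, limma adjusted p = 0.299).

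Mfng held a small part of the summed per-kilobase level of the 3 fringe genes, 0.772% ± 0.127 in FGF13cko and 2.94% ± 1.46 in CTRL (SD, n = 3 each), whereas Lfng held 80.8% ± 4.26 in FGF13cko and 79.5% ± 2.97 in CTRL. The log2 ratio of Mfng to Lfng was -6.51 ± 0.31 in FGF13cko and -4.67 ± 0.72 in CTRL, without overlap (exact permutation test, 2-sided, p = 0.1, the smallest possible; adjusted p = 0.2).

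**Figure D3:**
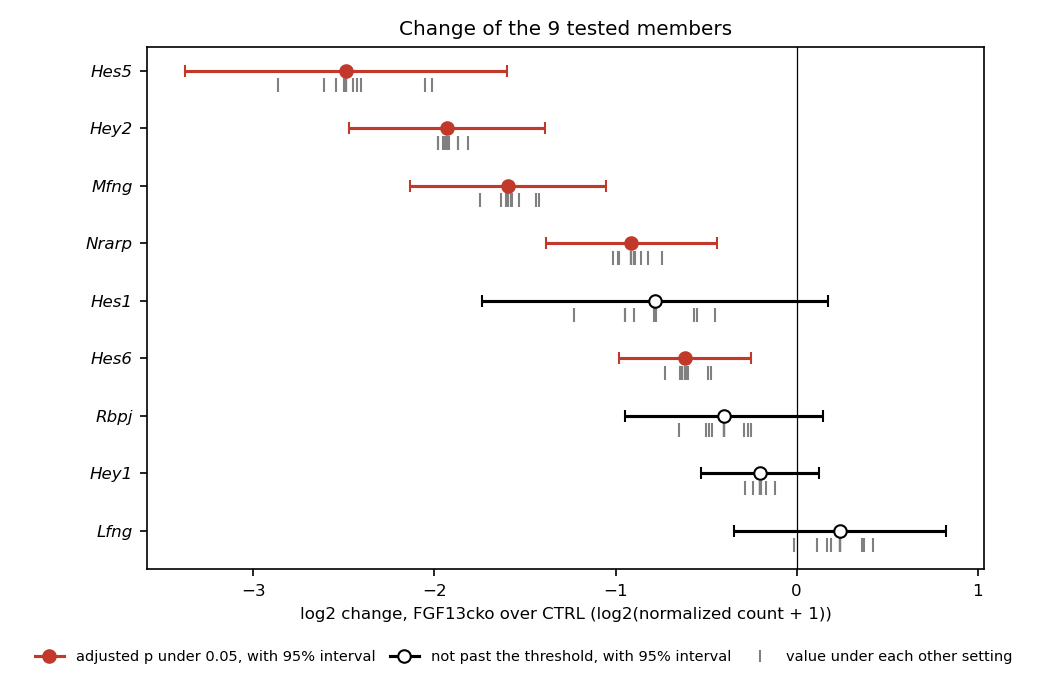
Log2 change of the 9 tested genes in FGF13cko over CTRL (x axis) with its 95% interval, red where the limma adjusted p was under 0.05, and grey ticks for the value under each of the 13 other settings. The intervals of Hes5, Hey2, Mfng, Nrarp and Hes6 lie below 0, and those of Hes1, Rbpj, Hey1 and Lfng include 0.

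Levels can be compared between genes only per length of exon. The length used joins all annotated exons of a gene, and is 12750 bases for Rbpj, 1363 for Hes5 and 2582 for Nrarp. Where the transcripts present are shorter than this, the level per kilobase is set too low. In normalized counts per kilobase, Hes6 averaged 1456 ± 46.4 in FGF13cko and 2252 ± 380 in CTRL (SD, n = 3 each), and Lfng 1722 ± 363 in FGF13cko and 1477 ± 404 in CTRL. Lfng was first and Hes6 second in FGF13cko, and the order was turned in CTRL. Their ranges overlap in FGF13cko (1323 to 2031 for Lfng, 1428 to 1509.6 for Hes6) but not in CTRL (1010.1 to 1722 for Lfng, 1913 to 2662 for Hes6). Next came Hey1 with 344 ± 39.8 in FGF13cko and 394 ± 20.5 in CTRL, and Hes1 with 234 ± 81.0 in FGF13cko and 418 ± 183 in CTRL. The ranges of Hey1 and Hes1 overlap in CTRL and are apart in FGF13cko (305 to 385 for Hey1, 140.4 to 281 for Hes1).

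Hes5 was at 41.5 ± 6.41 normalized counts per kilobase in FGF13cko, below Rbpj (109 ± 18.3) and Nrarp (54.7 ± 10.5), and at 262 ± 151 in CTRL, above Rbpj (146 ± 39.3) and Nrarp (102 ± 9.21). In FGF13cko the range of Hes5 overlaps that of Nrarp and not that of Rbpj, and in CTRL the range of Rbpj overlaps those of both Hes5 and Nrarp. Mfng, Hey2 and Heyl closed the order in both groups, with ranges that do not touch each other within a group. Mfng was at 16.1 ± 0.79 in FGF13cko and 50.02 ± 10.8 in CTRL, Hey2 at 5.29 ± 0.42 in FGF13cko and 20.8 ± 1.63 in CTRL, and Heyl at 1.39 ± 0.13 in FGF13cko and 1.85 ± 0.30 in CTRL. The genes that were lower thus span the whole order, with Hes6 near its top and Mfng and Hey2 near its end.

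**Figure D4:**
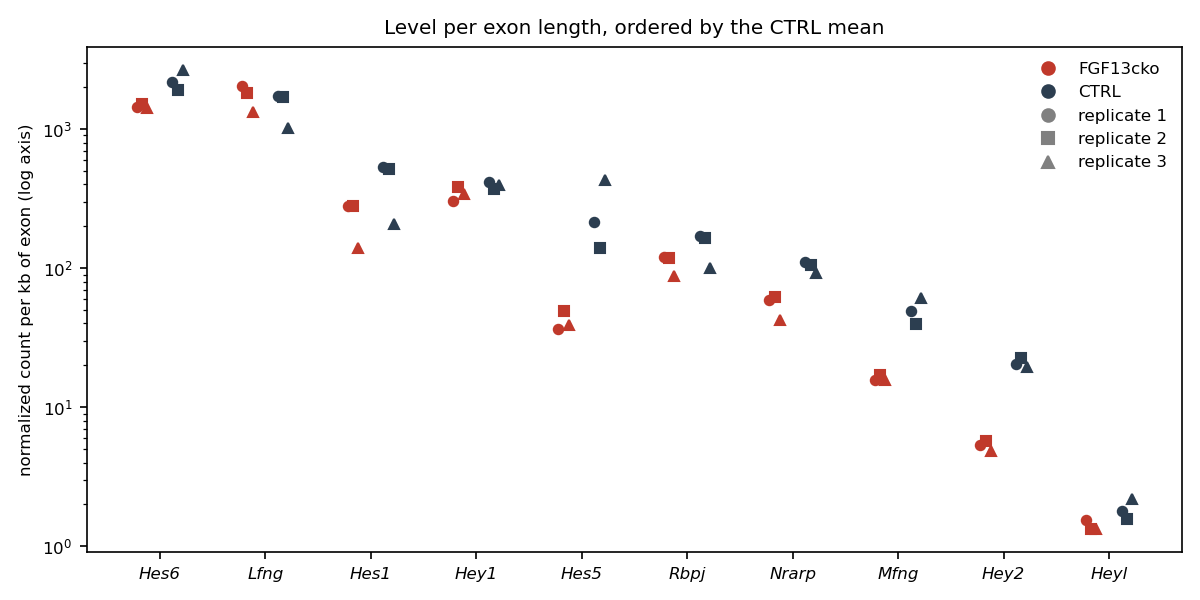
Normalized count per kilobase of exon (y axis, log scale) for the 10 genes, ordered by the CTRL mean, with 1 point per library (FGF13cko red and left, CTRL dark and right; marker shape gives the replicate number). Levels run from about 1.39 for Heyl to 1722 for Lfng in FGF13cko, and from 1.85 for Heyl to 2252 for Hes6 in CTRL.

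The rest of the Notch pathway was counted from 4 lists chosen by function. Among 12 receptors and ligands, 2 were lower and 1 higher: Dll1, a canonical ligand, averaged 582 ± 199 in FGF13cko and 1510.2 ± 240 normalized counts in CTRL (SD, n = 3 each; log2 change -1.42, limma adjusted p = 0.0134). Dll3, a divergent ligand that acts within the cell, averaged 219.7 ± 27.5 in FGF13cko and 1117 ± 272 in CTRL (log2 change -2.32, limma adjusted p = 0.00159), and Jag1, a ligand of the Jagged class, was higher, at 3764 ± 84.2 in FGF13cko and 1234 ± 420 in CTRL (log2 change 1.67, limma adjusted p = 0.00738). Dll1 missed the threshold without FGF13cko 2 (limma adjusted p = 0.0646) or CTRL 1 (0.0553). The count of 3 was 6 without both replicate 3 libraries and 2 without FGF13cko 2 or CTRL 1. Of all genes tested, 6145 of 16470, 469 of 16875 and 732 of 16905 passed under these settings, in the same order. None of the 4 receptors passed, with Notch1, the main receptor of neural progenitors, at 6912 ± 1339 in FGF13cko and 8832 ± 1592 in CTRL (log2 change -0.36, limma adjusted p = 0.275). The list median was -0.06.

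Among 25 genes of receptor processing, glycosylation and ligand trafficking, 5 were lower and 1 higher, with a list median of -0.04. Numbl, a Numb-like adaptor that restrains Notch, averaged 739.8 ± 151 in FGF13cko and 1910.3 ± 255 in CTRL (log2 change -1.38, limma adjusted p = 0.00513). Neurl1b, an E3 ligase that promotes ligand uptake, averaged 492 ± 39.2 in FGF13cko and 1177 ± 235 in CTRL (log2 change -1.24, limma adjusted p = 0.0066). The others lower were Aph1b and Aph1c, closely similar gamma-secretase subunits whose reads may be exchanged, and the ligase Mib2. The related Neurl1a was higher, at 389 ± 28.2 in FGF13cko and 182 ± 76.4 in CTRL (log2 change 1.19, limma adjusted p = 0.0462), a call lost when low genes were kept (0.0548) and without any 1 of the FGF13cko libraries or CTRL 1 (0.0876 to 0.136). The list's count of 6 was 10 with the replicate block, 13 without both replicate 3 libraries, 9 without CTRL 3, 3 without FGF13cko 1 or FGF13cko 3, and 2 without FGF13cko 2 or CTRL 1. Of all genes tested, 30% passed with the block, 6145 of 16470 without both replicate 3 libraries and 4373 of 16594 without CTRL 3. Without FGF13cko 1 and FGF13cko 3, 1408 of 16924 and 923 of 16814 passed. Without FGF13cko 2 and CTRL 1, 469 of 16875 and 732 of 16905 did.

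Of 20 tested nuclear cofactors and corepressors none passed (limma; 0 higher and 3 lower at an unadjusted p under 0.05, against 15.1% lower of all genes tested, and 0 in the authors' deposited table at an adjusted p under 0.05), and the list median was -0.03. With the replicate block 3 passed, and 2 did so without CTRL 3 and 5 without both replicate 3 libraries, all lower, where 13.9%, 12.9% and 18.4% of all genes tested were lower. The list includes the Mastermind coactivators Maml1 to Maml3 and the Groucho-type corepressors Tle1 to Tle4 and Aes.

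Of 14 tested proneural and related factors, many of which Hes proteins repress or bind, 2 were higher and 1 lower, with a list median of -0.32. Neurod1, a factor of neuronal differentiation, was higher, at 744 ± 228 in FGF13cko and 207 ± 63.0 in CTRL (log2 change 1.85, limma adjusted p = 0.00883), as was Gadd45g, a stress and neurogenesis gene, at 1527 ± 254 in FGF13cko and 829 ± 86.3 in CTRL (log2 change 0.87, limma adjusted p = 0.0152). Neurod1 missed the threshold without FGF13cko 2 (limma adjusted p = 0.0525), and Gadd45g without FGF13cko 1 (0.0507) or FGF13cko 2 (0.0818). Neurog1, Neurod4, Atoh1, Hes3, Hes2 and Helt were under the filter. The list's count of 3 was 6 with the replicate block, 8 without both replicate 3 libraries, 5 without CTRL 3, 1 without FGF13cko 2 and 2 without FGF13cko 1. Of all genes tested, 30% passed with the block, 6145 of 16470 without both replicate 3 libraries and 4373 of 16594 without CTRL 3. Without FGF13cko 2 and FGF13cko 1, 469 of 16875 and 1408 of 16924 passed. Over the 4 lists the shares past the threshold can be set beside the 14.6% of all genes tested: 3 of 12, 6 of 25, 0 of 20 and 3 of 14.

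**Figure D5:**
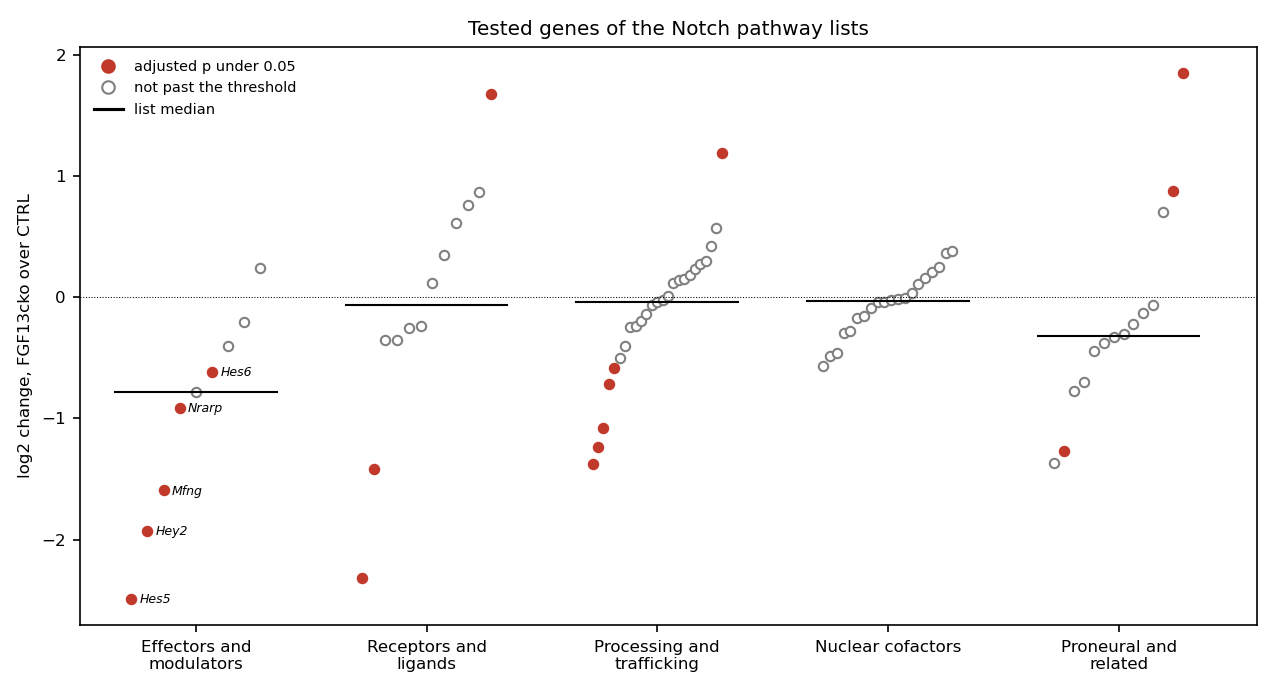
Log2 change in FGF13cko over CTRL (y axis) of each tested gene in 5 lists (x axis), red where the limma adjusted p was under 0.05, with a black line at each list's median and names for the effectors and modulators that passed. The effectors and modulators have a median of -0.78, and the medians of the other lists lie between -0.32 and -0.03.

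The genes whose profile over the 6 libraries was most like that of each lower member were found by the root mean square difference of log2 values centred on the CTRL mean, over 12172 genes with a mean of at least 50. They are named for their likeness only. For Hes5 these were Tmie (0.15), Als2cl (0.19) and Sspo (0.21), with Als2cl at 343 ± 18.3 in FGF13cko and 2338 ± 1020 in CTRL. For Hes6 they were Pigv, Ghr and Dclre1c (0.03 to 0.05), and for Nrarp Sema5b, Mamdc4 and Serpinh1 (0.06 to 0.07). Hey2 was nearest to Tspan2 (0.11), which averaged 143 ± 21.9 in FGF13cko and 546.7 ± 22.4 in CTRL, then Map3k1 and Khnyn (0.14 and 0.15), and Mfng to Zc3h6 (0.09), Dcdc2b and Pipox (0.11 and 0.13). No member was among the 3 genes kept as nearest to another. With only 3 kept of 12172, this does not tell whether the members vary together.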

How the data were processed

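The deposited table holds 54532 genes with 1 normalized value per library. The title the authors gave the table calls this signal normalized, and all deposited values of a library are whole multiples of its smallest within 0.01 of a read (100% of values), so they are called normalized counts here. It also holds the authors' deposited log2 fold changes with standard errors, a Wald score, and p-values. Per the submitters' processing notes, the authors used STAR, mm10 and DESeq2, with no version stated. Which annotation and read counter served is not given in the sources used here, and the library kit (NEBNext Ultra, per the labels) does not mark strand. Coordinates and exon lengths are from GENCODE M21 (GRCm38), 1-based. Only low-level antisense genes overlap members (Hes5 and Nrarp by exons, Rbpj by introns), with means of at most 1.16 normalized counts.

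limma 3.58.1 (R 4.3.3), with a mean-variance trend and genotype as the only term, was run on log2(value + 1). This scale understates the change of low genes. The limma step was tested on simulated data. Pairs of members were compared by exact permutation over 20 assignments and, as an alternative chosen after seeing the data, within replicate numbers by 8 sign flips. The alternatives were pseudocounts of 0.5 and 4, no filter, a mean of at least 50, TMM scaling of the deposited values, the replicate block, each library left out, and both replicate 3 libraries left out. Count tests planned for recovered reads were not run. Values were whole multiples in every library, but in CTRL 2 and CTRL 3 the multiple is close to 1 (1.01 normalized counts per read in each), and the rule used for accepting recovered reads does not take such steps. The authors' own deposited test stands beside limma instead. The pairing was checked from residuals around group means. Libraries 1, 2 and 3 of FGF13cko correlated with the CTRL library of their number at 0.36, 0.20 and 0.54, each over 0.1, so the block is given where it changes a call. However, CTRL 2 correlated more with FGF13cko 1 (0.33) than with FGF13cko 2, and FGF13cko 2 more with CTRL 1 (0.26) than with CTRL 2. With both replicate 3 libraries apart, centring on group means ties libraries 1 and 2 together. The check therefore cannot show that libraries 1 and 2 are paired by number. Members and lists were chosen with earlier results of these data known. Named genes were the 10 members, Fgf13, up to 2 rises and 2 falls per list with the smallest adjusted p, and the 3 nearest genes by profile. A gene that this rule names among the proneural factors is not reported here. Other genes named as examples of a list were chosen after their values were seen. Tables and plots came from Python 3.11.15 with matplotlib 3.10.9.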

Additional observations from a re-analysis of the deposited data

How the results depend on the processing

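Pseudocount, filter and TMM scaling kept each member's direction, and of the members' calls they changed only that of Hes6 (no filter). The replicate block gave 5064 genes past the threshold against 2465, and 10, 3 and 6 for processing, cofactors and proneural genes, against 6, 0 and 3. It changed no call of a member other than Hes1 and Rbpj. Without both replicate 3 libraries the counts were 6145 genes, 6 receptors and ligands, 13 processing genes, 5 cofactors and 8 proneural genes. With 1 library left out they ranged from 469 to 4373 genes, 3 to 7 members, 2 to 4 receptors and ligands, 2 to 9 processing genes, 0 to 2 cofactors and 1 to 5 proneural genes. The log2 change of Lfng then ranged from -0.01 (-0.0125, without CTRL 3) to 0.42, the Hes6 to Hes1 difference from -0.16 to 0.74 and the Hes5 to Hes1 difference from -2.30 to -0.82. These fits hold fewer libraries, and the cause of the ranges was not tested. Depth limits Heyl.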

Other observations

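Other genes of the same helix-loop-helix families were at low levels or varied with CTRL 3. Hes7, the oscillating gene of the segmentation clock, had 5.90, 7.72 and 15.5 normalized counts in FGF13cko 1, 2 and 3, against 14.2, 9.06 and 15.2 in CTRL 1, 2 and 3. Hes3 stayed between 0.984 and 6.76 in FGF13cko and between 2.02 and 3.05 in CTRL libraries, and Hes2 and Helt at or below 2.02 in every library. The Id genes encode helix-loop-helix proteins that lack a DNA-binding part, and Id1, Id2, Id3 and Id4 were each far higher in CTRL 3 than in the other CTRL libraries. Id1 had 415, 513 and 993 normalized counts in FGF13cko 1, 2 and 3, against 585, 500.2 and 3111 in CTRL 1, 2 and 3. Id3 had 2183, 2205 and 3164 in FGF13cko, against 3059, 3055 and 8207 in CTRL. Id2 had 1271, 1504 and 2568 in FGF13cko, against 1133, 1136 and 5009 in CTRL, and Id4 had 710.1, 917 and 1342 in FGF13cko, against 414, 427 and 1148 in CTRL. Neurog2, a proneural factor, had 107, 155 and 299.6 in FGF13cko, against 329.6, 190.2 and 1395 in CTRL. In Id1, Id2, Id3, Id4 and Neurog2 both replicate 3 libraries were the highest of their group, as was CTRL 3 for Hes5, while Hes1 and Rbpj were lowest in both. None of Id1, Id2, Id3, Id4, Neurog2 and Hes7 passed the test between the groups (limma adjusted p = 0.504, 0.895, 0.198, 0.275, 0.213 and 0.555).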
